A study of Mus musculus with 123 samples.

Results

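The 10 genes described here are Sfrp1, a secreted inhibitor of Wnt signalling, and 9 genes that carry, relay, read out or inhibit a Wnt signal (Wnt7b, Wnt6, Fzd5, Axin2, Dkk1, Lef1, Tcf7, Tcf7l1 and Ctnnb1). They were taken by symbol from a table of 29022 genes. In canonical Wnt signalling, a secreted Wnt ligand binds a Frizzled receptor with an Lrp co-receptor. The destruction complex of Axin, Apc and Gsk3 then stops degrading β-catenin, the product of Ctnnb1, which enters the nucleus and works through the factors encoded by Tcf7, Lef1, Tcf7l1 and Tcf7l2. In mouse embryonic stem cells, Tcf7l1 acts mainly as a repressor of pluripotency genes, and β-catenin relieves that repression. Axin2 is a widely used target gene of the pathway and also one of its brakes.

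RNA was sequenced from mouse embryos taken singly, as whole morulae or as inner cell masses (ICMs): 68 from a line built to delete Oct4 (gene symbol Pou5f1) and 55 from a line built to delete Sox2. KO embryos had neither maternal nor zygotic gene. Ctrl embryos, from the same crosses, also had no maternal gene, which Zp3-Cre had removed in the oocyte, but kept the intact allele of their heterozygous father. The KO allele carried a fluorescent label, mKO2 in the Oct4 line and EGFP in the Sox2 line, by which KO embryos were told from Ctrl embryos. A further set has the genotype label MWT, which is not spelled out and is read here as embryos whose maternal gene was intact. Morulae were whole embryos of E2.75. ICMs were labelled E3.75 if early and E4.5 if late. Their embryos were taken at E2.5, cultured in KSOM medium with 1 μM of the MEK inhibitor PD0325901 and stripped of trophectoderm by immunosurgery, so that stage, culture, inhibitor and isolation cannot be told apart between morulae and ICMs. All mothers had been superovulated, and the strain is given as B6C3F1. Each line had 8 Ctrl and 8 KO embryos at each stage. MWT embryos numbered 7 morulae, 5 early ICMs and 8 late ICMs in the Oct4 line and 7 early ICMs in the Sox2 line. For the Oct4 MWT ICMs the stage is that of the sample titles, while their tissue entries name the stage before (E2.75 for the early ICMs, with no inhibitor given, and E3.75 for the late ICMs).

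Levels are unique molecular identifiers (UMIs, tags that let each captured transcript be counted once) scaled to a total of 1000000 UMIs in each embryo, written CPM. Embryos held 525755 to 1344035 UMIs, so that 1 UMI is worth 0.744 to 1.90 CPM. The libraries read 3′ ends and CPM is not scaled by gene length, so levels are compared between groups and not between genes. Fold changes are log2 values ± SE from edgeR quasi-likelihood fits over all genes tested, with Benjamini-Hochberg adjusted p. Ctrl and KO embryos shared 1 fit, and comparisons with MWT came from another fit of all embryos. A gene was called when the adjusted p was under 0.05 and the absolute log2 fold change at least 1. No label says that embryos of a group came from separate litters, so p-values measure the spread between embryos. The targeted gene followed the labels: Pou5f1 summed to 3, 7 and 1 UMIs over the 8 Oct4-KO morulae, early ICMs and late ICMs, against 163, 550 and 236 in Ctrl. Median Sox2 levels were 12.4, 94.0 and 169 CPM in Sox2 Ctrl and 1.81, 24.3 and 13.7 CPM in Sox2-KO embryos of these stages, so some Sox2 RNA was still counted there.

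Positions are on mm10 as the table gives them: Sfrp1 at chr8:23411502-23449632 (plus strand), Wnt6 at chr1:74771892-74785322 (plus), Fzd5 at chr1:64730558-64737751 (minus), Wnt7b at chr15:85535437-85582473 (minus), Axin2 at chr11:108920349-108950783 (plus) and Tcf7l1 at chr6:72626378-72789254 (minus). No gene of the GENCODE vM21 annotation overlaps Sfrp1 or Dkk1. The other 8 members overlap an antisense or unclassified transcript, and Ctnnb1 also overlaps Ulk4 on the other strand. Whether counting used the strand is not given in the sources used here, so reads of such partners cannot be separated from those of the member. The promoters of Fzd5 and Tcf7l1 are shown because these 2 genes were called in more than 1 KO comparison and have 1 start each among the RefSeq promoters (GRCm38.p6). Each is the 250 bases before RefSeq's start, read 5′ to 3′ on the minus strand, with the dinucleotide CG in capitals. Fzd5 is at chr1:64737751-64738000 and Tcf7l1 at chr6:72789046-72789295. RefSeq starts Tcf7l1 inside the interval that the table gives the gene, so that 209 of these bases lie within that interval, against 1 for Fzd5.
Fzd5: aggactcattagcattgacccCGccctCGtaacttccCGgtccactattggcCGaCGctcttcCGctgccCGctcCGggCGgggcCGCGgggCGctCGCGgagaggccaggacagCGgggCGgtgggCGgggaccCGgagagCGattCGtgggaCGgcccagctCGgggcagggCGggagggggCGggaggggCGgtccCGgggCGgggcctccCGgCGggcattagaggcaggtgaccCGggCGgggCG
Tcf7l1: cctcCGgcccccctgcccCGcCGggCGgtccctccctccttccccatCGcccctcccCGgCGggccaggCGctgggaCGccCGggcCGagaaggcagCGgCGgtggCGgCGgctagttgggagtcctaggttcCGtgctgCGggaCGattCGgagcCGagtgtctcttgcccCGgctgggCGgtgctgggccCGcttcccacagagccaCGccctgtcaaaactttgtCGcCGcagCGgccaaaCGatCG
Both are rich in CG, with a GC content of 76.4% for Fzd5 and 73.6% for Tcf7l1 against a median of 52.4% over 32851 promoters of the same length. Their ratios of observed to expected CG pairs are 0.908 and 0.862, against a median of 0.373. The promoters were also searched for 3 letter strings, on both strands and for all 13 promoters of 8 members (Sfrp1 and Wnt7b have no entry): the octamer ATGCAAAT, the SOX string CATTGTT and the TCF/LEF string CTTTGAT. None of the 3 contains another. They occur in 1.6%, 3.29% and 3.21% of all promoters and in no member's promoter, which says only that these letters are not in these windows.

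Sfrp1 fell in Oct4-KO embryos at every stage, to near 0 in the ICMs, and was not called in Sox2-KO embryos. Its product binds Wnt ligands outside the cell. In Oct4 Ctrl morulae the lowest, median and highest levels were 40.6, 65.7 and 164 CPM, and in Oct4-KO morulae 1.11, 6.50 and 39.7 CPM. The highest KO morula (replicate 12, 46 UMIs) stayed just under the lowest Ctrl morula, and that embryo held 0 UMIs of Pou5f1. In early ICMs Ctrl embryos spanned 25.7, 37.6 and 58.4 CPM, and KO embryos 0, 0.585 and 3.12 CPM. In late ICMs Ctrl embryos spanned 16.1, 28.0 and 46.7 CPM, while 7 of the 8 KO embryos held no UMI and the last held 1. The Ctrl and KO groups thus did not overlap at any of the 3 stages.

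The log2 fold changes of Sfrp1 were -2.80 ± 0.33 in Oct4-KO morulae (n = 8 per group, edgeR adjusted p = 4.79e-10), -5.04 ± 0.53 in early ICMs (8.73e-13) and -6.48 ± 0.76 in late ICMs (1.78e-11). With so few UMIs left, a ratio of pooled rates is the plainer measure, each rate being the summed UMIs of a group over its summed library totals. The KO level was 14.04% of Ctrl in morulae (exact Poisson 95% interval 11.2 to 17.4%, 95 against 660 UMIs), 2.57% in early ICMs (1.02 to 5.36%, 7 against 267 UMIs) and 0.590% in late ICMs (0.0148 to 3.34%, 1 against 151 UMIs). Such intervals cover counting error only, and replicate 12 alone held 46 of the 95 UMIs of the KO morulae. The effect in early ICMs minus that in morulae, -2.24 ± 0.72, had an adjusted p of 0.0526 in edgeR and 0.0202 in the DESeq2 Wald test (there -2.35), so its call depends on the tool. In the Sox2 line the groups overlapped at every stage, with log2 fold changes of 0.18 ± 0.30 (adjusted p = 1), -0.24 ± 0.28 (0.696) and -0.40 ± 0.27 (0.362). All 8 Sox2-KO late ICMs, at 69.7 to 121 CPM, were nevertheless under the Ctrl median of 128 CPM. The Oct4 effect differed from the Sox2 effect by -2.98 ± 0.44 in morulae (adjusted p = 3.57e-06), -4.80 ± 0.63 in early ICMs (1.29e-08) and -6.08 ± 0.87 in late ICMs (1.76e-07).

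**Figure D1:**
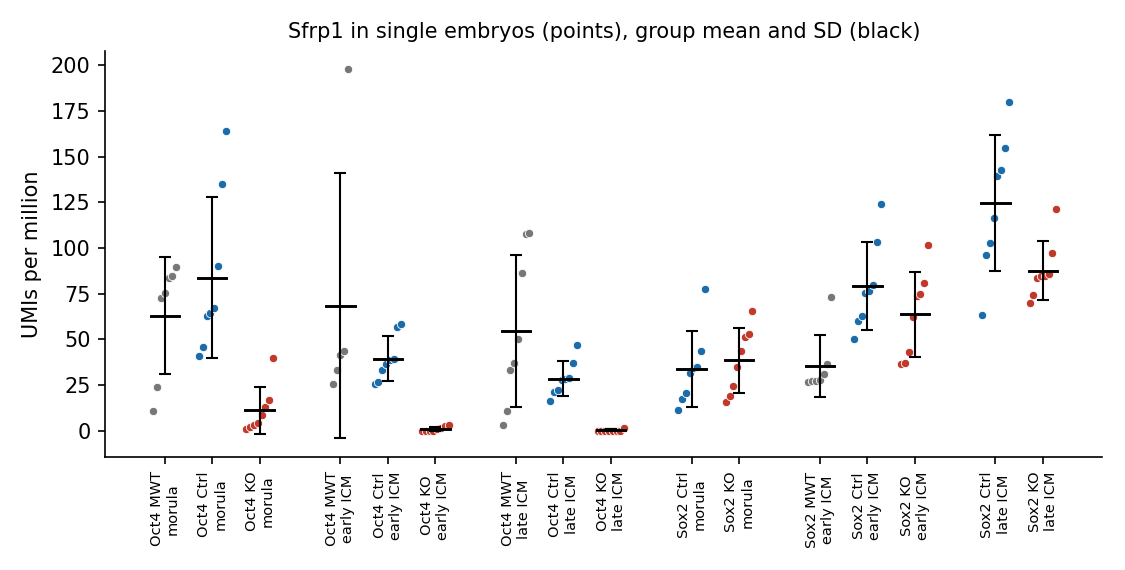
Sfrp1 in CPM (linear vertical axis) for each embryo (points), by line, stage and genotype (horizontal), with the group mean as a black line and the SD as error bars. Grey points are MWT, blue Ctrl and red KO. Oct4-KO embryos sit below all Oct4 Ctrl embryos of their stage, whereas Sox2-KO and Sox2 Ctrl embryos overlap.

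Sfrp1 also differed between the lines in embryos that had their zygotic gene. Group means were 83.7 ± 44.0 (SD) CPM in Oct4 Ctrl morulae, 39.4 ± 12.3 in early ICMs and 28.5 ± 9.70 in late ones. They were 33.8 ± 20.6, 79.0 ± 24.1 and 124 ± 37.1 CPM at these stages of Sox2 Ctrl embryos. The step from morula to early ICM was -1.21 ± 0.29 in the Oct4 line (adjusted p = 0.000286), which fell short of the fold minimum when depth was equalized (-0.98) or Ctrl morula replicate 4 left out (-0.999), and 1.15 ± 0.29 in the Sox2 line (0.000437). These steps differed by 2.36 ± 0.41 (adjusted p = 1.99e-06). This contrast was added after the values were seen. The line cannot be told apart here from whatever else separated the 2 sets of embryos. Over the 16 groups the highest mean was that of Sox2 Ctrl late ICMs, followed by Sox2-KO late ICMs (87.6 CPM), Oct4 Ctrl morulae and Sox2 Ctrl early ICMs, and the lowest means were the 3 Oct4-KO groups. Every group overlapped its neighbours in that order. The Oct4-KO morulae met the group above them, Oct4 Ctrl late ICMs, through 2 embryos at 16.5 and 39.7 CPM.

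Among all 9 members tested, 2, 3 and 5 were called at the 3 stages in Oct4-KO embryos, and 0, 1 and 1 in Sox2-KO embryos. Lef1 could not be tested, with 4 UMIs in 4 embryos of all groups. In Oct4-KO morulae 2 of 9 were called (Sfrp1 and Fzd5, both lower), where 0.804% of all 14053 genes were called. In Oct4-KO early ICMs 3 of 9 were called (Sfrp1, Fzd5 and Tcf7l1, all lower), beside 10.9% of all genes. In Oct4-KO late ICMs the same 3 were lower and Wnt6 and Wnt7b higher, 5 of 9 beside 18.1% of all genes. No member was called in Sox2-KO morulae, where 1 gene in all was (0.00712%) and 618 had an unadjusted p under 0.05, no member among them. Tcf7l1, lower each time, was the 1 member called in the early and the late ICMs of the Sox2-KO line, beside 3.27% and 6.95% of all genes. The median log2 fold change over the 9 members was -0.06, 0.04 and -0.999 in the Oct4 line and -0.06, -0.27 and -0.40 in the Sox2 line, against -0.01 to 0.01 over all genes. Whether fewer cells of a type or less RNA in each cell lies behind a change cannot be told apart in whole-embryo RNA.

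**Figure D2:**
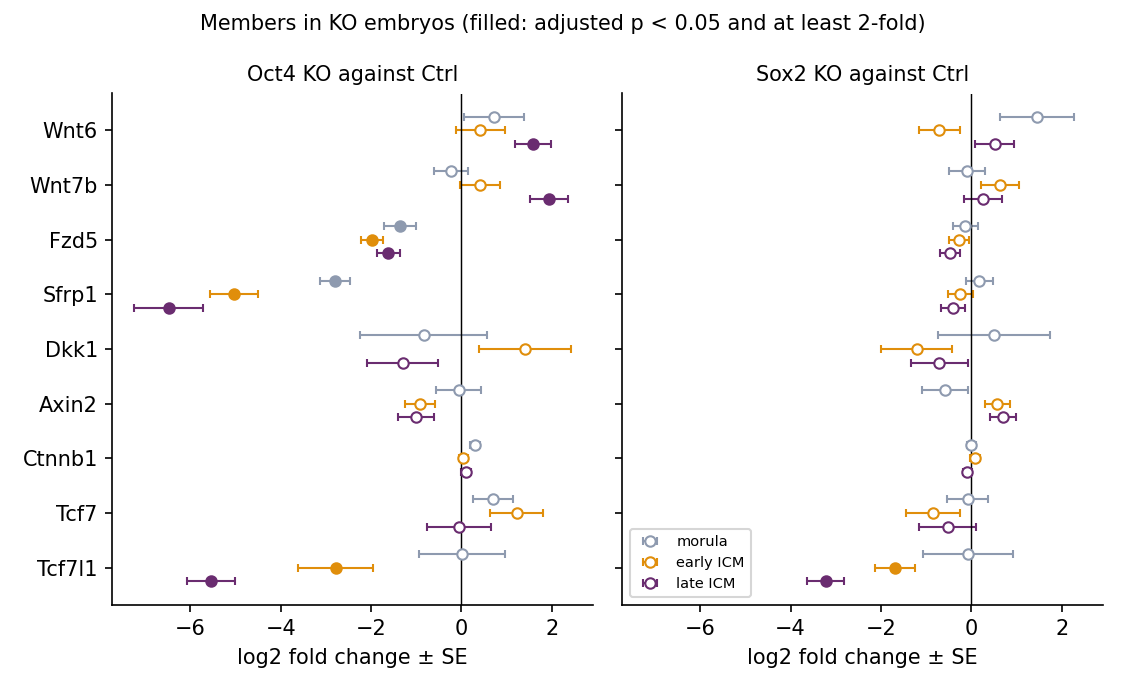
Log2 fold change KO over Ctrl (horizontal, ± SE) of the 9 members tested, by line (panels) and stage (colours), with filled points for calls. In the Oct4 line Sfrp1, Fzd5 and Tcf7l1 lie to the left and Wnt6 and Wnt7b to the right in late ICMs, and in the Sox2 line only Tcf7l1 is called.

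The ligands Wnt7b and Wnt6 were called higher in Oct4-KO late ICMs and at no earlier stage. Wnt7b spanned 1.39, 6.78 and 52.7 CPM in Oct4 Ctrl late ICMs and 42.0, 46.4 and 81.1 CPM in KO late ICMs. All 8 KO embryos were above the Ctrl median, and the groups overlapped only through the highest Ctrl embryo. The log2 fold change was 1.94 ± 0.42 (adjusted p = 0.000105). Wnt6 spanned 2.78, 18.3 and 32.7 CPM in Ctrl and 7.25, 44.1 and 153 CPM in KO late ICMs, with 7 of 8 KO embryos above the Ctrl median and a log2 fold change of 1.59 ± 0.40 (0.000893). Ctrl late ICMs differed by the first digit of their label number, whose meaning the labels do not give. Wnt7b was 1.39 to 8.21 CPM in the 5 Ctrl embryos with a 1 and 22.8 to 52.7 CPM in the 3 with a 2, against 42.0 to 73.3 and 42.9 to 81.1 CPM in KO embryos. Wnt6 was 2.78 to 20.04 and 24.7 to 32.7 CPM in these Ctrl sets, against 7.25 to 153 and 22.7 to 65.2 CPM in KO embryos. With the digit as a block Wnt7b gave 2.04 ± 0.37 (adjusted p = 0.000150) and Wnt6 1.57 ± 0.43 (0.00713). Both calls held in all 27 alternative settings, and leaving out any 1 embryo was among them. In Oct4-KO early ICMs the log2 fold changes were 0.41 ± 0.44 for Wnt7b (adjusted p = 0.567) and 0.42 ± 0.55 for Wnt6 (0.649), and the late minus the early effect was not called for either (1.53 ± 0.61, adjusted p = 0.148, and 1.17 ± 0.69, 0.386).

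In Sox2-KO late ICMs Wnt7b gave 0.25 ± 0.42 (adjusted p = 0.765) and Wnt6 0.52 ± 0.43 (0.484). The difference between the lines was not called by edgeR for either gene: 1.68 ± 0.59 for Wnt7b (adjusted p = 0.0577, and 0.0491 in the DESeq2 Wald test) and 1.07 ± 0.59 for Wnt6 (0.289). Trophectoderm markers were also higher in Oct4-KO late ICMs: the summed level of 13 of them was 464 to 1832 CPM in Oct4 Ctrl late ICMs and 2641 to 5505 CPM in KO late ICMs, 12 of the 13 were called higher, and none of the defining markers Cdx2, Gata3, Krt8 and Krt18 was at 0 in either group. Their part in the rise of Wnt6 and Wnt7b was not tested. The sum in Oct4-KO early ICMs was 963 to 2000 CPM against 366 to 1850 in Ctrl, with 4 of 13 called higher and 1 lower, and in Sox2-KO late ICMs 998 to 3221 CPM against 237 to 3699, with 4 of 13 called higher. In Sox2-KO early ICMs it was 1128 to 2673 CPM against 209 to 733, without overlap and with 6 of 13 called higher, while Wnt7b gave 0.64 ± 0.42 (adjusted p = 0.418) and Wnt6 -0.71 ± 0.45 (0.399) there.

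**Figure D3:**
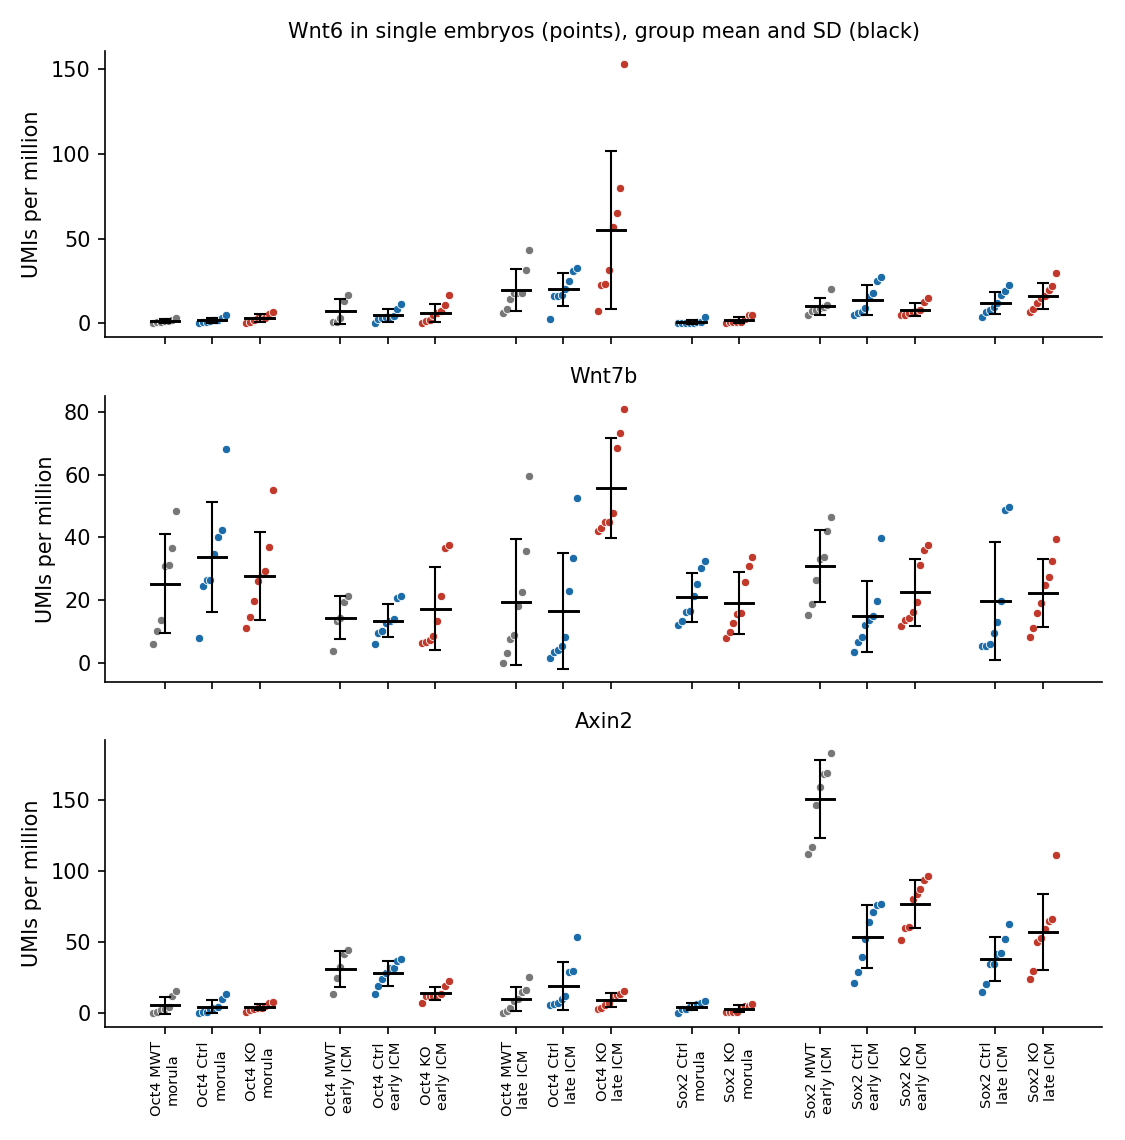
Wnt6, Wnt7b and Axin2 in CPM (linear vertical axis) for each embryo (points), by line, stage and genotype (horizontal), with the group mean as a black line and the SD as error bars. Grey points are MWT, blue Ctrl and red KO. The 8 Oct4-KO late ICMs lie at 42.0 to 81.1 CPM for Wnt7b, and all 7 Sox2 MWT early ICMs lie above the Sox2 Ctrl early ICMs for Axin2.

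The 2 ligands followed different courses in Ctrl embryos. Wnt7b fell from morula to early ICM in the Oct4 line (mean 33.9 to 13.4 CPM, -1.41 ± 0.41, adjusted p = 0.00316) and gave -0.52 ± 0.41 in the Sox2 line (0.299). Wnt6 was near the limit of detection in morulae, with 15 and 6 UMIs over the 8 Ctrl embryos of each line. It rose in Sox2 Ctrl early ICMs (4.05 ± 0.64, adjusted p = 5.63e-08) and, in the Oct4 line, at the next step (2.09 ± 0.49, 0.000397). The first value ran from 3.82 to 5.09 when single embryos were left out. Morula replicate 14 held 4 of the 6 UMIs of the Sox2 Ctrl morulae. The difference between the lines was called for both steps of Wnt6, at 2.90 ± 1.00 (adjusted p = 0.0214) and -2.33 ± 0.65 (0.00885).

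Fzd5, a Frizzled receptor, fell in Oct4-KO embryos at all 3 stages and was not called in Sox2-KO embryos. In early ICMs Oct4 Ctrl embryos spanned 80.2, 106 and 142 CPM and KO embryos 21.1, 23.1 and 35.5 CPM. These groups did not overlap, and the log2 fold change was -1.97 ± 0.24 (adjusted p = 1.68e-10). In late ICMs Ctrl embryos spanned 41.3, 64.2 and 142 CPM and KO embryos 10.1, 19.4 and 44.1 CPM (-1.62 ± 0.25, 1.67e-07), with all 8 KO embryos under the Ctrl median but 1 reaching into the Ctrl range. Leaving out single embryos, Ctrl late ICM replicate 1-4 with its 142 CPM among them, kept both calls in 16 of 16 cases each.

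The fall of Fzd5 in Oct4-KO morulae is less secure. Ctrl morulae spanned 4.26, 12.3 and 24.6 CPM and KO morulae 1.93, 3.84 and 10.8 CPM, from 108 and 41 UMIs, and the log2 fold change was -1.36 ± 0.35 (adjusted p = 0.0186). The call was lost at equalized depth (-1.36, adjusted p = 0.110) and without Ctrl replicate 15 (-1.21, 0.0702), Ctrl replicate 19 (-1.27, 0.0509), KO replicate 1 (-1.26, 0.0513) or KO replicate 2 (-1.24, 0.0568), in each of these with the fold still past the minimum. With limma on the deposited rlog values, a moderated log2 scale, it was lost because the fold was under the minimum (-0.82, adjusted p = 0.0131). In the Sox2 line Fzd5 gave -0.13 ± 0.27, -0.27 ± 0.22 and -0.47 ± 0.22 (adjusted p = 1, 0.541 and 0.157), although all 8 Sox2-KO late ICMs were under the Ctrl median. The difference between the lines was not called in morulae (-1.23 ± 0.44, adjusted p = 0.301) and was called in early (-1.70 ± 0.32, 9.90e-05) and late ICMs (-1.15 ± 0.34, 0.0188). Fzd5 rose from morula to early ICM in both Ctrl sets, by 2.82 ± 0.25 in the Oct4 line (7.59e-17) and 2.40 ± 0.24 in the Sox2 line (1.17e-14), without overlap, while Oct4-KO early ICMs reached a mean of 25.4 CPM from 5.06 CPM in KO morulae.

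**Figure D4:**
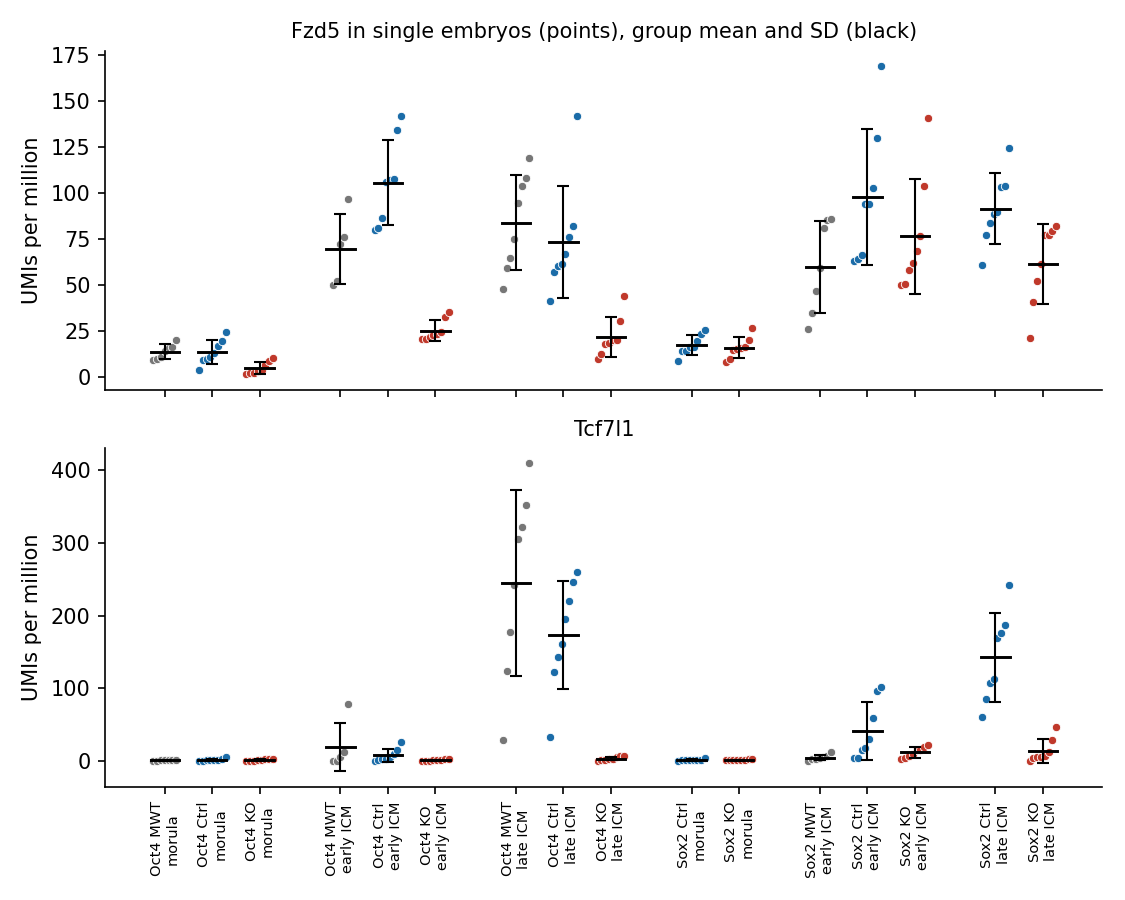
Fzd5 and Tcf7l1 in CPM (linear vertical axis) for each embryo (points), by line, stage and genotype (horizontal), with the group mean as a black line and the SD as error bars. Grey points are MWT, blue Ctrl and red KO. Fzd5 is lower than Ctrl in Oct4-KO early ICMs without overlap, and Tcf7l1 in the late ICMs of both KO lines.

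Tcf7l1, the repressor among the Tcf factors, was the 1 member called in both lines. It was almost silent in morulae, with 12 UMIs over the 8 Ctrl embryos of each line, and rose in the ICM. Oct4 Ctrl late ICMs spanned 33.4, 178 and 260 CPM, whereas Oct4-KO late ICMs spanned 0, 2.55 and 7.25 CPM. The sums were 938 and 20 UMIs, a KO level of 1.90% of Ctrl (interval 1.15 to 2.95%), with a log2 fold change of -5.54 ± 0.52 (adjusted p = 2.96e-15). Sox2 Ctrl late ICMs spanned 61.0, 141 and 243 CPM and Sox2-KO late ICMs 0, 6.15 and 46.6 CPM, or 9.81% of Ctrl (7.84 to 12.2%, 92 against 996 UMIs), with -3.23 ± 0.42 (2.92e-09). Neither pair of groups overlapped. The Oct4 effect differed from the Sox2 effect by -2.31 ± 0.73 (adjusted p = 0.0297), a call lost in the DESeq2 Wald test (0.0509).

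In early ICMs Tcf7l1 varied widely between Ctrl embryos and the calls were weaker. Oct4 Ctrl embryos spanned 0, 4.27 and 26.6 CPM and KO embryos 0, 1.14 and 2.36 CPM (56 against 7 UMIs), with -2.79 ± 0.83 (adjusted p = 0.00951). The call was lost without Ctrl replicate 9 (-2.16, adjusted p = 0.0796) and with limma on rlog values (-0.81, 0.102). Sox2 Ctrl embryos spanned 4.15, 24.1 and 102 CPM and KO embryos 3.22, 12.1 and 22.3 CPM, with -1.69 ± 0.44 (0.00725), and this call was lost without Ctrl replicate 10 (-1.35, adjusted p = 0.0521) and with limma (-0.99, 0.0767). The call is relative to a high Ctrl set: the Sox2-KO median was above the medians of Sox2 MWT (4.35 CPM) and Oct4 Ctrl early ICMs (4.27 CPM). From early to late ICM, Tcf7l1 rose by 4.45 ± 0.45 in Oct4 Ctrl (adjusted p = 7.70e-14) and 1.77 ± 0.37 in Sox2 Ctrl embryos (0.000893), a difference between lines of -2.67 ± 0.58 (0.000497). Epiblast RNA was lower in the late KO ICMs of both lines: the summed level of 14 epiblast markers, Sox2 among them, was 6410 to 10041 CPM in Oct4 Ctrl and 3236 to 4653 CPM in Oct4-KO late ICMs (12 of 14 called lower), and 6253 to 9427 against 4505 to 5635 CPM in the Sox2 line (8 of 14 called lower). In early ICMs 10 of 14 were called lower in the Oct4 line and 8 of 14 in the Sox2 line. The summed level of 13 primitive endoderm markers was 1055 to 2068 CPM in Oct4-KO late ICMs against 298 to 1606 in Ctrl (medians 1656 and 700), and of the 11 tested 3 were called higher and 4 lower. In Oct4-KO early ICMs this sum was 915 to 1706 CPM against 616 to 958 (3 of 11 called higher and 2 lower). The part of these cells in the fall of Sfrp1, Fzd5 and Tcf7l1 was not tested.

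Axin2, the target gene, had negative log2 fold changes in the ICMs of the Oct4 line and positive ones in those of the Sox2 line, none past the call rule in the fit over all 96 Ctrl and KO embryos. In Oct4-KO early ICMs it spanned 7.28, 12.6 and 22.3 CPM against 13.4, 30.0 and 38.0 CPM in Ctrl. All 8 KO embryos were under the Ctrl median, and the log2 fold change of -0.91 ± 0.34 (adjusted p = 0.0430) missed the fold minimum. It passed at equalized depth (-1.14, adjusted p = 0.0226) and without Ctrl replicate 3 (-1.01, 0.0272) or KO replicate 1 (-1.02, 0.0331). Oct4-KO late ICMs spanned 2.90, 9.28 and 15.6 CPM against 5.71, 11.03 and 53.4 CPM in Ctrl. Only 4 of these 8 KO embryos were under the Ctrl median, while 3 Ctrl embryos, at 28.9 to 53.4 CPM, were above every KO embryo. The log2 fold change of -0.999 ± 0.40 (adjusted p = 0.0439) was just short of the fold minimum. It passed the rule under DESeq2 (-1.01, adjusted p = 0.0283) and several other settings. Those 3 Ctrl embryos all have label numbers that begin with 1. Among such embryos Ctrl spanned 9.75 to 53.4 CPM and KO 2.90 to 15.6 CPM, and among those whose numbers begin with 2 Ctrl spanned 5.71 to 7.27 CPM and KO 5.80 to 13.1 CPM. With this digit as a block Axin2 gave -0.76 ± 0.46 (adjusted p = 0.239).

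In the Sox2 line Axin2 gave 0.58 ± 0.28 in early (adjusted p = 0.235) and 0.70 ± 0.29 in late ICMs (0.101), with 7 and 6 of 8 KO embryos above the Ctrl median. The difference between the lines was called at both stages, at -1.49 ± 0.44 (adjusted p = 0.0201) and -1.70 ± 0.49 (0.0174). Neither difference was refitted with the label digit as a block or with single embryos left out. The Oct4 effect in late ICMs, part of the second, was -0.76 with that block. With Axin2 counted, 1 of 9 members differed between the lines in morulae (Sfrp1, beside 0.356% of all genes), 3 in early ICMs (Sfrp1, Fzd5 and Axin2, 5.52%) and 4 in late ICMs (those 3 and Tcf7l1, 6.30%), each with the more negative effect in the Oct4 line. Axin2 rose from morula to early ICM in both Ctrl sets, from a mean of 4.56 to 27.9 CPM in the Oct4 line (2.47 ± 0.39, adjusted p = 1.12e-07) and from 4.59 to 53.8 CPM in the Sox2 line (3.44 ± 0.37, 1.11e-13), without overlap in either line.

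Ctnnb1, which encodes β-catenin, was not called in any KO comparison. Its group means ran from 154 to 341 CPM, and its log2 fold changes in the 6 KO comparisons from -0.08 ± 0.11 to 0.29 ± 0.11, with the lowest adjusted p at 0.180. From morula to early ICM it gave 0.99 ± 0.11 in Oct4 Ctrl embryos, without overlap (adjusted p = 3.45e-13) but just under the fold minimum, and 0.40 ± 0.11 in Sox2 Ctrl embryos (0.000901). Tcf7, which encodes the activating factor Tcf1, stayed at group means of 1.51 to 8.45 CPM. It was not called in any KO comparison, and fell from morula to early ICM in Oct4 Ctrl embryos (42 to 11 UMIs, -1.74 ± 0.55, 0.00638). Lef1, the related activator, was at 0 in 13 of the 16 groups.

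Dkk1, a secreted inhibitor that blocks the Lrp co-receptor, was uneven between embryos of a group. In Sox2 Ctrl late ICMs it spanned 0, 11.2 and 119 CPM, and 1 embryo (replicate 2-6) held 101 of the 185 UMIs of the group. Oct4 Ctrl late ICMs spanned 0, 3.06 and 56.1 CPM. Its log2 fold changes furthest from 0 in the KO comparisons were 1.41 ± 1.02 (early) and -1.30 ± 0.78 (late) in the Oct4-KO ICMs (adjusted p = 0.356 and 0.209), neither of them called. The late value rests on single embryos: it became -2.24 and was called without KO replicate 2-2 (adjusted p = 0.0480), and became -0.15 without Ctrl replicate 1-3 (0.929). The early value became 0.88 without KO replicate 1 (0.639). Dkk1 did rise between stages, in Oct4 Ctrl embryos from early to late ICM (3.01 ± 0.91, adjusted p = 0.00656) and in Sox2 Ctrl embryos from morula to early ICM (3.29 ± 0.95, 0.00244), each from 10 UMIs or fewer in the earlier group. The first call was lost without late ICM replicate 1-3 (1.86 ± 0.99, adjusted p = 0.151), which held 41 of the 67 UMIs of its group, and the second held without any 1 of its 16 embryos. The second value became 4.52 without morula replicate 14, which held 5 of the 7 UMIs of its group.

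Over the stages of Ctrl embryos, the step from morula to early ICM held most of the calls. From morula to early ICM 6 of 9 were called in the Oct4 line (3 higher: Fzd5, Axin2 and Tcf7l1; 3 lower: Sfrp1, Wnt7b and Tcf7), beside 29.0% of all genes, and 6 in the Sox2 line (all higher: Sfrp1, Wnt6, Fzd5, Axin2, Dkk1 and Tcf7l1), beside 31.9%. From early to late ICM 3 were called in the Oct4 line (Wnt6, Dkk1 and Tcf7l1, all higher), beside 15.6%, and 1 in the Sox2 line (Tcf7l1, higher), beside 2.90%. In the Oct4 line the rise of Tcf7l1 from morula to early ICM (2.21) was not called without early ICM replicate 9 (1.59 ± 0.81, adjusted p = 0.0984), and Ctnnb1 (0.99), under the fold minimum, was called in 6 of 16 cases when 1 embryo was left out. The step differed between the lines for 2 members from morula to early ICM (Sfrp1 and Wnt6, beside 16.6%) and for 2 from early to late ICM (Wnt6 and Tcf7l1, beside 6.53%). No member's KO effect was called as different between successive stages in edgeR, where 3.29% and 3.11% of all genes were for the Oct4 line and 0.882% and 0.0427% for the Sox2 line. DESeq2 called 1, Sfrp1 as above. The members with an unadjusted p under 0.05 were Sfrp1 and Tcf7l1 for the first Oct4 step, Wnt7b and Dkk1 for the second, Wnt6 for the first Sox2 step and Tcf7l1 for the second. Of all 14053 genes, 2502, 2506, 1723 and 1494 had such a p at these steps.

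The comparison of MWT with Ctrl embryos asks what goes with the maternal deletion that Ctrl and KO embryos share. As MWT is read here, these embryos also inherit an intact maternal allele, which Ctrl embryos lack. Maternal product and the embryo's own gene dose therefore cannot be told apart in it. For the Oct4 line neither edgeR nor DESeq2 called a member at any stage, and edgeR called 0.0646%, 0.373% and 0.797% of the 13923 genes tested with these embryos. The members with an unadjusted edgeR p under 0.05 there were Ctnnb1 in morulae, Sfrp1 and Fzd5 in early ICMs, and Axin2, Tcf7, Ctnnb1, Dkk1 and Sfrp1 in late ICMs. Of the 13923 genes, 1005, 1326 and 1939 had such a p at these stages. Sfrp1 in Oct4 MWT early ICMs was 25.6, 33.4, 41.6, 43.7 and 198 CPM, and its log2 fold change of 0.81 ± 0.39 (adjusted p = 0.483) became -0.15 without the highest embryo. Fzd5 in these 5 embryos, 50.4 to 97.0 CPM, was above the 4.26 to 24.6 CPM of Oct4 Ctrl morulae, although their tissue entry reads morula.

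In the Sox2 line 3 of 9 members were called in MWT early ICMs, beside 2.58% of all genes. Axin2 spanned 112, 159 and 182 CPM in MWT and 20.9, 58.2 and 76.8 CPM in Ctrl embryos, without overlap (1.4997 ± 0.30, adjusted p = 0.000417), and the call held without any 1 of the 15 embryos. Tcf7l1 spanned 0, 4.35 and 12.2 CPM in MWT and 4.15, 24.1 and 102 CPM in Ctrl embryos (-3.04 ± 0.60, 0.000326). Sfrp1 spanned 26.6, 27.6 and 73.0 CPM in MWT and 50.3, 75.7 and 124 CPM in Ctrl embryos (-1.13 ± 0.37, 0.0453), a call lost in 11 of 15 cases when 1 embryo was left out, with log2 fold changes of -0.9993 to -1.13 and adjusted p of 0.0574 to 0.104. Wnt7b gave 1.04 ± 0.44 (adjusted p = 0.153) and was called without Ctrl replicate 5 (1.45, 0.0452). The summed level of the 13 primitive endoderm markers was 1070 to 1568 CPM in these MWT embryos and 250 to 921 CPM in Ctrl embryos, without overlap. Pou5f1 was called higher in them (1.01 ± 0.22, adjusted p = 0.00105), also without overlap. Whether these bear on the 3 calls was not tested. The MWT set has 1 stage in this line, so that other differences between the sets of embryos cannot be told apart from the maternal genotype.

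Beyond the 10 members, 85 further genes of the pathway were listed by role, and 47 were detected often enough to be tested. None was called in the morulae of either line by edgeR or DESeq2, where edgeR called 0.804% and 0.00712% of all genes. There 6 of the 47 in the Oct4 and 2 in the Sox2 line had an unadjusted p under 0.05, beside 1707 and 618 of all 14053 genes. In Oct4-KO early ICMs 4 of 47 (8.51%) were called, all lower, beside 10.9% of all genes. In Oct4-KO late ICMs 10 of 47 (21.3%) were called, 3 higher and 7 lower, beside 18.1%. In Sox2-KO early ICMs 2 were called, both higher (4.26%, beside 3.27%), and in Sox2-KO late ICMs 1, lower (2.13%, beside 6.95%). The shares of the list lay on both sides of those of all genes, and the median log2 fold changes of the list, -0.13 to 0.04, were near 0.

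Of the 11 nuclear partners tested, 2 were called lower in Oct4-KO early and 4 in Oct4-KO late ICMs, beside 10.9% and 18.1% of all genes called in either direction. Tcf7l2, the fourth Tcf/Lef factor, fell from a mean of 70.8 to 18.1 CPM in Oct4-KO early (-1.88 ± 0.31, adjusted p = 9.92e-07) and from 64.4 to 21.7 CPM in late ICMs (-1.44 ± 0.31, 0.000118), without overlap at either stage, and gave 0.08 ± 0.27 and 0.49 ± 0.27 in the Sox2 line (0.912 and 0.249). The Groucho co-repressors, which silence Tcf targets when β-catenin is absent, were called in both directions. In the Oct4 line Tle1 fell by 1.11 (early) and 1.32 (late) on the log2 scale in KO ICMs (adjusted p = 0.00298 and 0.000564), and Tle3 by 1.16 in late ICMs (0.000618). Tle5, a short family member without the full co-repressor structure, fell by 1.43 there (2.17e-06). Tle4 instead rose in Sox2-KO early ICMs, from 106 to 272 CPM without overlap (1.43 ± 0.21, 4.83e-07), and gave 0.95 ± 0.21 in Oct4-KO early ICMs (0.000301), under the fold minimum.

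At the cell surface and in secretion, Porcn, the acyltransferase that Wnt ligands need to be secreted, fell in Oct4-KO early (-1.22 ± 0.31, adjusted p = 0.00224) and late ICMs (-1.14 ± 0.37, 0.0118). Lgr4, an R-spondin receptor, fell there too (-1.23 ± 0.43, 0.0298, and -1.17 ± 0.40, 0.0185). Its means were also lower in Sox2-KO than in Sox2 Ctrl embryos, at 10.4 against 23.1 CPM in early and 9.16 against 18.4 CPM in late ICMs, without a call. None of the 10 other receptors and co-receptors tested was called in the Oct4 line, where 0.804%, 10.9% and 18.1% of all genes were called at the 3 stages. Kremen1, a transmembrane receptor for Dkk proteins that was listed with the secreted inhibitors, rose in Oct4-KO late ICMs from 4.93 to 21.8 CPM (2.19 ± 0.41, 7.22e-06). Its relative Kremen2 was not called in any KO comparison and stood at group means of 23.8 to 34.3 CPM in morulae and 1.03 to 6.38 CPM in ICMs. Gsk3b, a kinase of the destruction complex, rose in Oct4-KO late ICMs from 87.3 to 173 CPM (1.10 ± 0.15, 1.34e-09), and none of the other 11 relay genes was called in any of the 6 KO comparisons, beside 0.00712% to 18.1% of all genes in each.

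Wnt3a, Ccnd1 and Fzd9 were also called but lie under the 20 CPM set for naming, and are named here after their values were seen. The ligand Wnt3a rose in Oct4-KO late ICMs from 14 to 79 UMIs without overlap (2.35 ± 0.51, adjusted p = 0.000143) and in Sox2-KO early ICMs from 4 to 24 UMIs (2.38 ± 0.70, 0.0208). The cell cycle gene Ccnd1 held 1 UMI in Oct4-KO against 23 in Ctrl late ICMs, a ratio of 3.87% (interval 0.0940 to 23.8%). The receptor Fzd9 held 2 UMIs in Sox2-KO against 22 in Ctrl late ICMs, a ratio of 9.66% (1.10 to 39.3%).

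Genes whose group means most resembled those of a member were sought among 7558 genes, by Pearson r over the 16 group means of log2(CPM + 1). The 16 points share libraries and genotypes, so r is a description. Tcf7l1 was most like Pfkp (0.98), Chn1 (0.98) and Gramd1a (0.97), and Fzd5 most like Zfp281 (0.98), Rnf130 (0.97) and Zyg11b (0.97). Wnt6 had Kdelr1, Scly and Zyx (0.95 to 0.96), and Axin2 had Ncoa3, Rai1 and Dram1 (0.93 to 0.94). Sfrp1 had looser neighbours in Bcl2l14 (0.91), Slc25a5 (0.91) and Olfr506 (0.88), as had Wnt7b in Crip1, Rnpepl1 and Syngr2 (0.87 to 0.92) and Dkk1 in Flrt3, Mau2 and Ccnk (0.84 to 0.90). Ctnnb1 was most like Cd2ap, Shc1 and Wwp1 (0.93 to 0.95).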

How the data were processed

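Single-embryo 3′-end libraries were sequenced with unique molecular identifiers (UMIs). Per the study's methods, the authors handled UMIs with UMI-tools, trimmed with cutadapt, aligned with TopHat2 to mm10 (GENCODE vM23), assigned reads with featureCounts and corrected for lost molecules with TRUmiCount. The deposited counts are whole UMIs per gene, not normalized. The deposited log2 values are the authors' rlog values from DESeq2, used only for an alternative test. ERCC spike-ins were not used here.

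Counts were scaled with TMM and fitted with edgeR 4.0.16 (R 4.3.3) by group without covariates: the 96 Ctrl and KO embryos in 1 fit, every embryo for MWT comparisons. Genes detected in a share of at least 0.5 of the embryos of 1 stage were tested (14053 and 13923). SE is the absolute log2 fold change over the square root of F. Differences between effects were interaction contrasts. Alternatives used DESeq2 1.42.0, limma 3.58.1, other scalings and filters, thinned counts, single embryos left out and a replicate block. Intervals are exact Poisson at 95%. Over 416 pairs of embryos of a group the lowest chi-square per gene was 2.41, so no library appeared entered again. The script was tested on simulated data.

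Named were the members, the targeted genes, pathway genes called in a KO comparison with at least 20 CPM in the higher group, ligands and secreted inhibitors with at least 20 CPM in any group, and 3 genes most like each member that reached 20 CPM. Members and lists were chosen with earlier results of these data known. Groups came from the sample labels.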

Additional observations from a re-analysis of the deposited data

Results flagged for a closer look

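In 8 of 95 combinations of a member and a group with a median of at least 5 UMIs, 1 embryo stood apart from the others by Dixon's criterion at the 95% level. Chance alone meets it in about 1 of 20 groups of normally distributed values. Levels from low UMI counts need not be so distributed, and all 8 embryos were the highest of their group. Sfrp1 was at 39.7 CPM in Oct4-KO morula replicate 12 (the others 1.11 to 16.5), at 198 CPM in Oct4 MWT early ICM replicate 7 (25.6 to 43.7) and at 73.0 CPM in Sox2 MWT early ICM replicate 8 (26.6 to 36.3). Tcf7l1 was at 78.4 CPM in Oct4 MWT early ICM replicate 3 (0 to 12.01). Fzd5 was at 142 CPM in Oct4 Ctrl late ICM replicate 1-4 (41.3 to 82.1), and Dkk1 at 119 CPM in Sox2 Ctrl late ICM replicate 2-6 (0 to 41.9). Wnt6 was at 20.3 CPM in Sox2 MWT early ICM replicate 9 (5.07 to 11.1), and Wnt7b at 39.9 CPM in Sox2 Ctrl early ICM replicate 5 (3.32 to 19.7). Without replicate 3 the Tcf7l1 change in Oct4 MWT early ICMs went from 1.13 to -0.85, and it was not called either way (adjusted p = 0.583 and 0.821).

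The KO effect differed between the lines by its own test in 8 cases, as log2 differences of the Oct4 effect minus the Sox2 effect. They were -2.98, -4.80 and -6.08 for Sfrp1 in morulae, early and late ICMs, -1.70 and -1.15 for Fzd5 in early and late ICMs, -1.49 and -1.70 for Axin2 in early and late ICMs, and -2.31 for Tcf7l1 in late ICMs. These contrasts were not refitted with a block or with single embryos left out.

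The stage change of Ctrl embryos differed between the lines in 4 cases, given as Sox2 line minus Oct4 line, a contrast chosen after seeing the data. From morula to early ICM it was 2.36 for Sfrp1 and 2.90 for Wnt6. From early to late ICM it was -2.33 for Wnt6 and -2.67 for Tcf7l1.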

How the results depend on the processing

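Of 2775 single-gene values under an alternative, 104 changed sign, none of them for a gene called in the fit reported. Sfrp1 kept its 3 Oct4-KO calls in every alternative, as did Wnt7b, Wnt6, Fzd5 and Tcf7l1 theirs in Oct4-KO late ICMs, and Tcf7l1 in Sox2-KO late ICMs. The 2 members called in Oct4-KO morulae became 1 at equalized depth, 1 with limma on rlog values and 1 to 2 when single embryos were left out. The 1 called in Sox2-KO early ICMs became 0 with limma and 0 to 1 when single embryos were left out, and the cause was not tested. With limma the Tcf7l1 call in Oct4-KO early ICMs was lost as well. With library totals alone, 3 genes of the pathway list were called in Sox2-KO late ICMs, not 1. For the Oct4-KO effect in early ICM minus morula, DESeq2 called 1 member, not 0. Leaving out single embryos gave 2 to 4 members in Oct4-KO early and 5 to 7 in late ICMs. For the stage steps of Ctrl embryos, an alternative added after the values were seen, it gave 5 to 7 (morula to early ICM) and 2 to 3 (early to late ICM) in the Oct4 line, and 6 and 1 throughout in the Sox2 line.

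Embryo numbers shared by Ctrl and KO labels were not taken to pair the embryos, since deviations of same-numbered embryos correlated at -0.105 to 0.319 and no comparison with 3 or more pairs had every pair over 0.1. Sox2 late ICMs came nearest, with 3 of 4 pairs over 0.1 and 3 of 4 embryos best matched by their own number. A replicate block over the shared numbers gave 3 members called in Oct4-KO morulae (Tcf7 added, 2.08, adjusted p = 0.0478), against 1 for the same embryos without it. In early ICMs it gave 2 against 2 in the Oct4 line and 1 against 0 in the Sox2 line, and in Sox2-KO late ICMs 2 against 1 (Axin2 added, 1.13 ± 0.28, adjusted p = 0.00404). All genes called for the same embryos without and with the block were 157 and 282, 851 and 834, 227 and 418, and 320 and 638 in these comparisons, where all embryos gave 113, 1529, 459 and 977. Tcf7l1 in Oct4-KO early ICMs was not called among these embryos, without (-1.77, adjusted p = 0.602) or with the block (-1.75, 0.787). No block over single numbers could be fitted for Oct4-KO late ICMs (1 shared number) or Sox2-KO morulae (0). For late ICMs the first digit of the label number served as another block. It gave 5 members and 2336 genes in the Oct4 line (5 and 2544 without it), and 1 member and 890 genes in the Sox2 line (1 and 977).

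Over all genes, limma on rlog values called 54, 608 and 1244 in the Oct4-KO and 1, 208 and 446 in the Sox2-KO comparisons. Without a fold minimum the numbers were 206, 2950, 4450, 1, 989 and 1935, and equalized depth gave 71 in Oct4-KO morulae. Library totals alone moved the median of all genes in Oct4-KO late ICMs to -0.10. Members with few UMIs (Lef1, Tcf7, Wnt6 in morulae) are limited by depth.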
